A study of Mus musculus with 6 samples.

Results

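The Slc25 genes encode the mitochondrial solute carriers, and 32 of the 10041 rows of the deposited expression table named one of them. Members were all rows whose gene symbol begins with Slc25a and a digit and which name 1 gene. GENCODE M21 lists 47 protein-coding mouse genes of that name, of which the other 15 are not analysed here. Levels were compared between mouse Th17 cultures given oligomycin (2.5 ng/ml), an inhibitor of the mitochondrial ATP synthase, and cultures given its vehicle, DMSO, with 3 RNA-seq libraries in each group. Both groups began as naive CD4 T cells and were stimulated for 48 h through plate-bound anti-CD3e at 10 µg/ml and anti-CD28 at 1 µg/ml, with IL-23 at 10 ng/ml, IL-6 at 20 ng/ml and TGFb1 at 2.5 ng/ml as polarizing cytokines, so the DMSO cultures are activated Th17 cells and not resting ones. Strain, age and sex of the mice, and whether the libraries came from separate animals or cultures, are not stated in the labels, so the p-values measure the spread between these libraries, which may be technical.

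Carriers of this family sit mainly in the inner mitochondrial membrane, which is closed to most charged metabolites, and each moves a small set of substrates across it, usually in exchange for another. The ADP/ATP and phosphate carriers feed the ATP synthase and export the ATP it makes; the citrate, dicarboxylate, oxoglutarate and aspartate/glutamate carriers pass carbon and reducing equivalents between matrix and cytosol; others bring in cofactors, iron, glutathione and amino acids. In dividing lymphocytes the family links respiration to the cytosolic synthesis of lipids, nucleotides and proteins.

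Expression is given as FPKM, fragments per kilobase of transcript and per unit of library size, which allows levels of different genes to be set side by side but not amounts per cell. In bulk cultures fewer cells of a type and less RNA per cell cannot be told apart. T cell identity was checked on Cd4, which averaged 88.5 ± 14.5 FPKM with oligomycin and 99.8 ± 8.94 FPKM with DMSO (SD, n = 3 each). The 5 T cell markers summed to 579 to 661 FPKM with oligomycin and 554 to 680 FPKM with DMSO, and the 6 Th17 markers to 301 to 475 FPKM and 1695 to 1959 FPKM. Among the T cell markers Cd28, a costimulatory receptor, averaged 102 ± 18.8 FPKM with oligomycin and 147 ± 19.0 FPKM with DMSO, without overlap, and was called lower (log2 change -0.53, adjusted p = 0.0422). That call was lost by quantile normalization (0.135), with equal sums (0.107) and without DMSO library 1 (0.138) or 3 (0.118) or oligomycin library 1 (0.0544) or 2 (0.0989). The T cell markers Cd3d, Cd3e and Cd3g averaged 205, 55.5 and 166 FPKM with oligomycin, against 177, 46.9 and 143 FPKM with DMSO. Their groups overlapped and none of them was called. Il17a, the signature cytokine of the lineage, averaged 12.6 ± 2.45 FPKM with oligomycin and 246.6 ± 15.4 FPKM with DMSO, with no overlap. Of the markers of other cells, 1 of 2 for CD8 T cells (Cd8b1, 2.41 to 3.30 FPKM with oligomycin and 2.63 to 3.12 with DMSO), 1 of 7 for macrophages and dendritic cells (Cd68, 2.39 to 5.07 and 1.08 to 2.07), 1 of 4 for NK cells (Klre1, 0 to 0.469 and 1.18 to 2.03) and 0 of 5 for B cells had a row here, and their part in the results was not tested. Across the 32 carriers, log2 levels of library pairs correlated with r between 0.972 and 0.989 within oligomycin, between 0.991 and 0.993 within DMSO, and between 0.918 and 0.96 across the groups.

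Carrier mRNAs moved in both directions. Of the 32 carriers, all of which were tested, 8 were lower and 4 higher with oligomycin at an adjusted p under 0.05 (limma across all 9986 genes tested), and 20 were not called. The background was 30.2% of all tested genes called, 16.1% lower and 14% higher, against 37.5%, 25% and 12.5% of the carriers. The median log2 change, of FPKM + 1 here and throughout, was 0.10 over the carriers and -0.0044 over all tested genes. The 4 carriers with the smallest adjusted p were Slc25a1 (citrate), Slc25a13 (aspartate/glutamate), Slc25a10 (dicarboxylates) and Slc25a4 (ADP/ATP). All 4 were lower, and they stayed called in each of the 15 other settings tried. The other 8 calls depended on the scaling or on single libraries. When libraries were scaled to equal sums of FPKM without rows that name a small RNA, which moved the median of all tested genes by 0.105, a step taken because such rows held 80.8% to 82.2% of the sums with oligomycin and 72.0% to 78.0% with DMSO, the split was 7 higher and 4 lower, against 1952 higher and 1279 lower among all tested genes. By quantile normalization it was 6 and 6. Left out one at a time, the DMSO libraries 1, 2 and 3 left 7, 8 and 6 calls, and the oligomycin libraries 1, 2 and 3 left 13, 7 and 8.

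**Figure D1:**
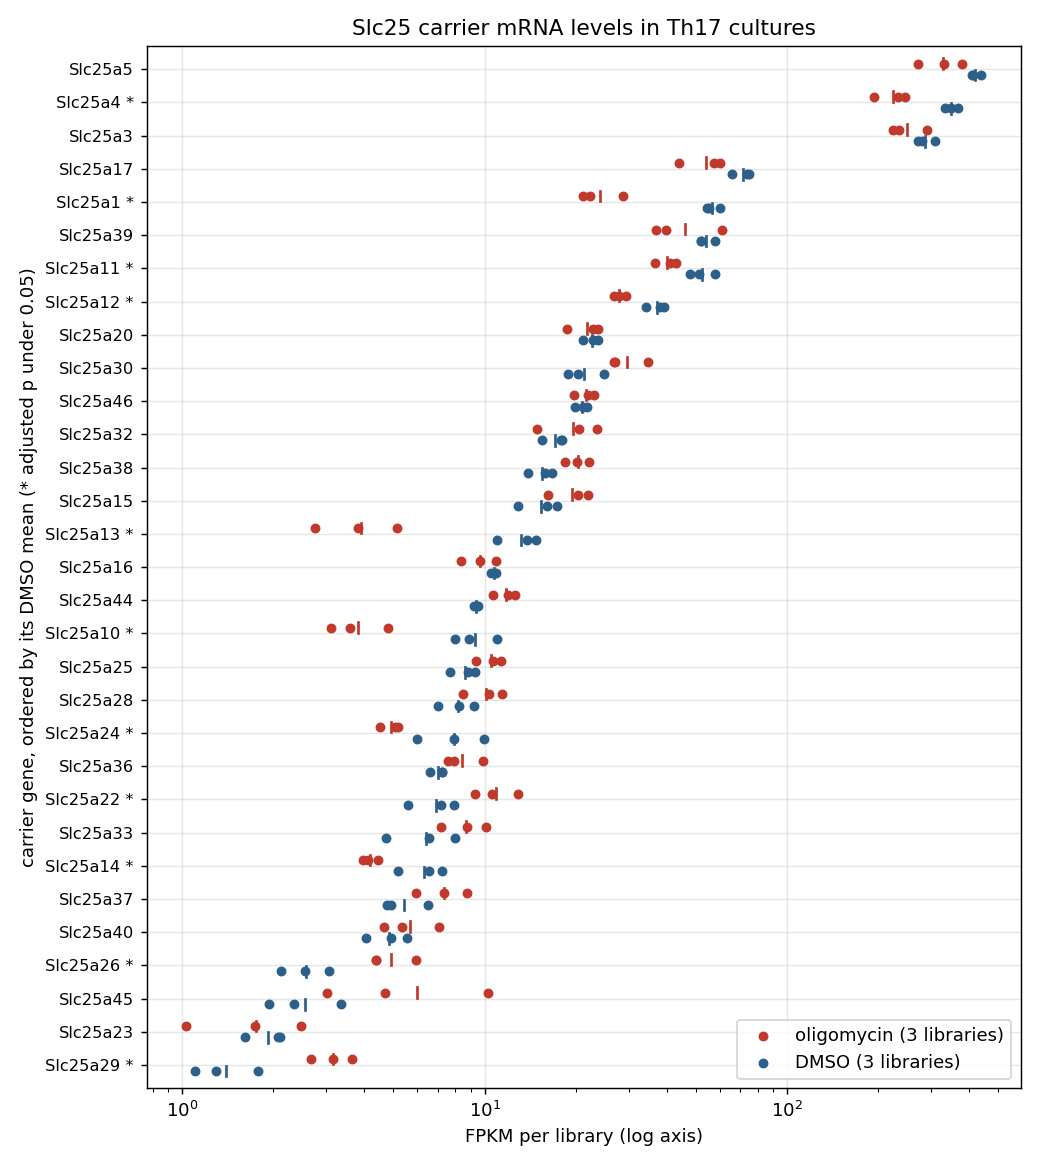
FPKM of the Slc25 carriers described here in each library (points) with group means (ticks) on a log axis, oligomycin above DMSO within each row, genes ordered by their DMSO mean. The ADP/ATP and phosphate carriers stand far above the rest, and Slc25a13, Slc25a10 and Slc25a1 show wide gaps between the groups.

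Levels of the carriers spanned a wide range. Slc25a5, the ADP/ATP carrier of dividing cells, led both groups with 327 ± 53.5 FPKM in oligomycin and 419 ± 15.3 FPKM in DMSO libraries. Slc25a3 and Slc25a4 followed, and their order differed between the groups: with oligomycin Slc25a3 averaged 249.4 FPKM and Slc25a4 averaged 224 FPKM, a gap within the spread of 36.3 and 27.3 FPKM, whereas with DMSO Slc25a4 stood at 349 ± 16.7 FPKM and Slc25a3 at 286 ± 19.4 FPKM. These 3 genes held 63.0% of the summed FPKM of the 32 carriers with oligomycin and 67.15% with DMSO. The fourth, the peroxisomal cofactor carrier Slc25a17, reached only 53.8 FPKM with oligomycin and 71.3 FPKM with DMSO. At the other end Slc25a23, a calcium-regulated ATP-Mg/phosphate carrier, averaged 1.75 ± 0.721 FPKM with oligomycin and 1.93 ± 0.272 FPKM with DMSO. The summed FPKM of the family came to 1419, 1135 and 1249 in oligomycin libraries 1, 2 and 3, against 1599.9, 1532 and 1580.4 in DMSO libraries 1, 2 and 3, and the groups did not overlap.

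The Spearman correlation of mean level over all 6 libraries and log2 change was -0.38 across the 32 carriers and -0.16 across all tested genes, given as a description, since all points share the same 6 libraries.

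Of the carriers that serve the ATP synthase itself, Slc25a4 fell and the other two were not called. Slc25a4 (XLOC_020438, chromosome 8, 46207341 to 46211009, GRCm38), one of the translocases that export ATP in exchange for ADP, had 246, 194 and 233 FPKM in the oligomycin libraries, against 366, 333 and 348 FPKM in the DMSO libraries. All oligomycin values lay under all DMSO values, and its log2 change was -0.64 (SE 0.14, adjusted p = 0.00969). Slc25a5 (XLOC_022198, chromosome X, 36795652 to 36798806), the second ADP/ATP translocase, had 378, 272 and 331 FPKM with oligomycin, against 413, 409 and 437 FPKM with DMSO. These groups did not overlap either, but the change of -0.37 (SE 0.15, 95% interval -0.72 to -0.02) was not called (adjusted p = 0.0984), and it was called without oligomycin library 1 (-0.48, adjusted p = 0.032). Slc25a3 (XLOC_002178, chromosome 10, 91116578 to 91123963), which imports phosphate, had 291, 223 and 234 FPKM with oligomycin, against 308, 271 and 279.9 FPKM with DMSO. Oligomycin library 1 lay inside the DMSO range, and the interval of the log2 change ran from -0.53 to 0.12 (adjusted p = 0.302). In all 3 genes oligomycin library 1 was the highest and library 2 the lowest of their group. Of the 50-base stretches in Slc25a5 transcripts, 33.8% also occur in transcripts of 9 other GENCODE genes, against 0% for Slc25a4 and 1.5% for Slc25a3. As no label says how reads with several matches were treated, the level of Slc25a5 is the least certain of the 3.

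All 3 carboxylate carriers were called lower, against 16.1% of all tested genes, with the call of Slc25a11 at the threshold. Slc25a1 (XLOC_007860, chromosome 16, 17925211 to 17928219), which sends citrate to the cytosol for fatty acid and sterol synthesis, had 28.7, 22.4 and 21.1 FPKM in the oligomycin libraries, against 54.5, 60.2 and 55.1 FPKM in the DMSO libraries. The groups were far apart, with a 2.35-fold lower mean and a log2 change of -1.21 (SE 0.14, adjusted p = 0.000498). Slc25a10 (XLOC_003196, chromosome 11, 120491837 to 120501161), which exchanges malate and succinate for phosphate, had 4.79, 3.59 and 3.10 FPKM with oligomycin, against 7.97, 11.02 and 8.88 FPKM with DMSO. It fell by 1.096 (SE 0.17, adjusted p = 0.00257), again without overlap. Slc25a11 (XLOC_003557, chromosome 11, 70644027 to 70647039), the oxoglutarate/malate exchanger, had 42.9, 41.1 and 36.6 FPKM with oligomycin, against 51.3, 57.6 and 47.7 FPKM with DMSO. Its fall of 0.37 (SE 0.12, adjusted p = 0.0497) was the closest of the calls to the threshold. The call was lost with no filter (adjusted p = 0.0504), no intensity trend (0.0621), quantile normalization (0.0885) and equal sums (0.0824), and without DMSO library 1, 2 or 3 or oligomycin library 2 or 3 (0.117, 0.164, 0.0807, 0.0724 and 0.152). Exons of Slc25a11 share 189 bases with Rnf167 on the opposite strand, and Rnf167 rose by 1.11 (adjusted p = 0.00758). Without strand information reads there cannot be assigned to one of both.

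Of the 7 amino acid carriers 2 fell and 2 rose, against 16.1% and 14% of all tested genes. The steepest change of the family was here. Slc25a13 (XLOC_016980, chromosome 6, 6041218 to 6217173), known as citrin, exports aspartate for glutamate in the malate-aspartate shuttle, which carries cytosolic reducing equivalents to the respiratory chain. It had 3.83, 2.75 and 5.14 FPKM in the oligomycin libraries, against 13.8, 10.96 and 14.8 FPKM in the DMSO libraries, so the highest oligomycin value lay far under the lowest DMSO value. The mean was 3.37-fold lower and the log2 change -1.55 (SE 0.20, adjusted p = 0.000878). Slc25a12 (XLOC_011845, chromosome 2, 71274295 to 71367554), aralar, the second carrier with this function, had 27.7, 26.7 and 29.3 FPKM with oligomycin, against 39.3, 38.1 and 34.1 FPKM with DMSO. It fell by 0.40 (SE 0.11, adjusted p = 0.0264) with no overlap. That call was lost by quantile normalization (adjusted p = 0.0527) and equal sums (0.0794), and without DMSO library 1, 2 or 3 or oligomycin library 2 or 3 (0.0974, 0.0841, 0.0514, 0.058 and 0.0517).

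Of the 5 other amino acid carriers, 2 rose and 3 were not called. Slc25a22 (XLOC_019636, chromosome 7, 141429749 to 141437874), which brings glutamate into the matrix, had 12.9, 10.6 and 9.31 FPKM in the oligomycin libraries, against 5.59, 7.19 and 7.91 FPKM in the DMSO libraries. It rose by 0.60 (SE 0.16, adjusted p = 0.0259), but not past the threshold without DMSO library 1 (0.0853), DMSO library 2 (0.0539) or oligomycin library 1 (0.0615). Slc25a29 (XLOC_004825, chromosome 12, 108825878 to 108835876), a carrier of basic amino acids, had 2.67, 3.65 and 3.15 FPKM with oligomycin, against 1.78, 1.29 and 1.11 FPKM with DMSO. It rose by 0.80 (SE 0.18, adjusted p = 0.0112), the largest called rise of the family, and missed the threshold without DMSO library 3 (0.0508). With oligomycin it changed places with Slc25a23 at the bottom of the order, at levels where the pseudocount of 1 understates a change. The remaining 3 were above 0 without a call. Slc25a38, which brings in glycine for haem synthesis, averaged 20.3 ± 1.85 FPKM with oligomycin and 15.5 ± 1.43 FPKM with DMSO, with no overlap, and stood just outside the threshold (adjusted p = 0.0505). It was called with a pseudocount of 5 (0.0497), a minimum of 5 FPKM (0.0469), quantile normalization (0.0309), equal sums (0.0186) and without rows sharing a locus (0.0475). Slc25a44, a carrier of branched-chain amino acids, had 11.7 ± 0.987 and 9.39 ± 0.169 FPKM (adjusted p = 0.0842, and 0.0265 with equal sums). Slc25a15, the ornithine carrier, had 19.5 ± 2.97 and 15.4 ± 2.26 FPKM (adjusted p = 0.152).

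**Figure D2:**
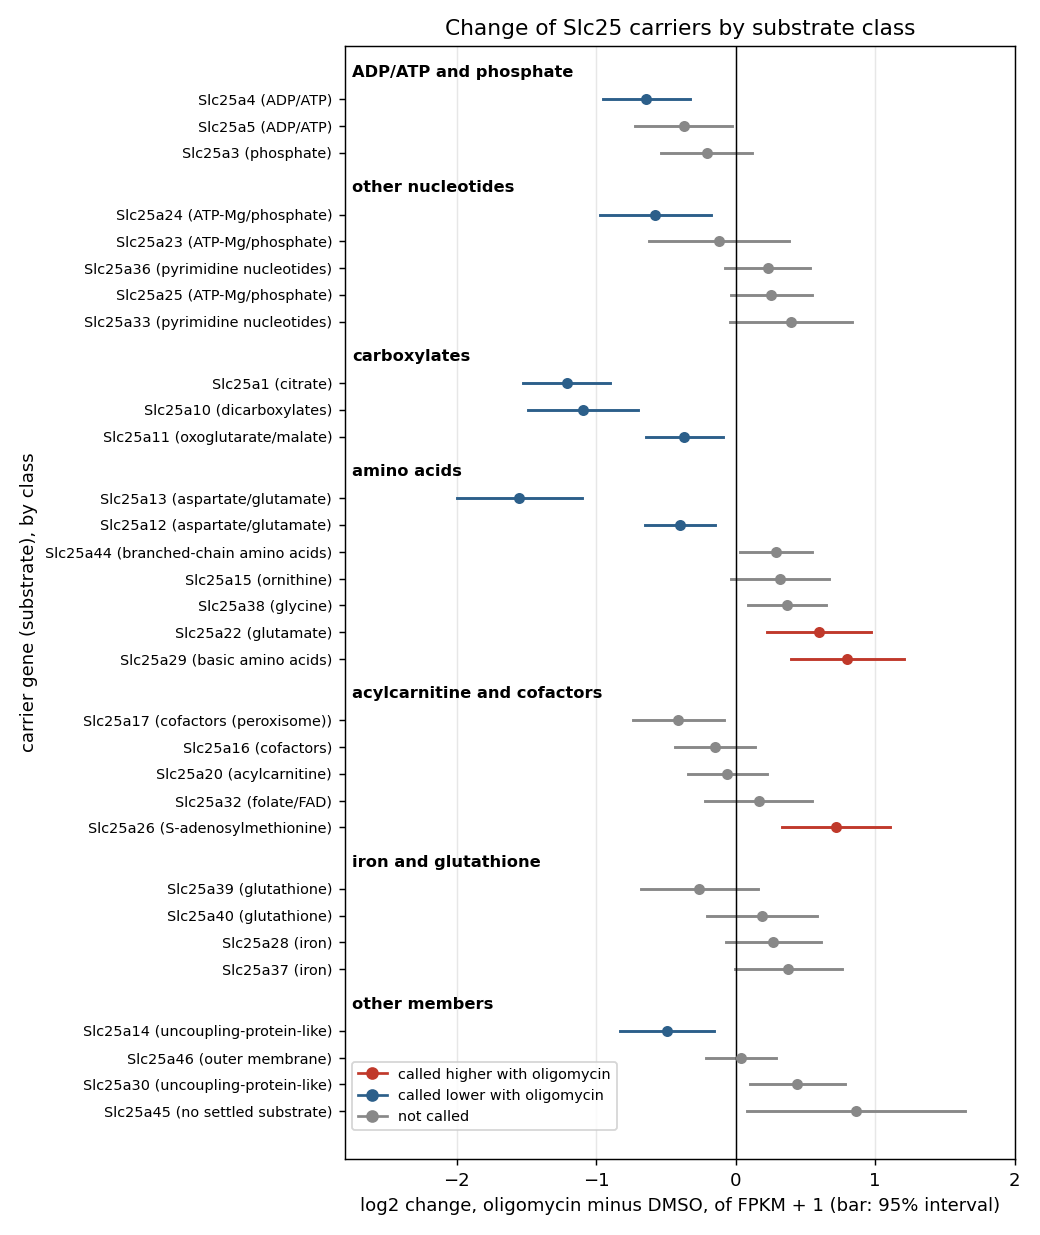
Log2 change (oligomycin minus DMSO, of FPKM + 1) of the carriers described here with the 95% interval of each from limma, by substrate class, with called carriers in colour. The 3 carboxylate carriers and both aspartate/glutamate carriers lie left of 0 in one block, and Slc25a22, Slc25a29 and Slc25a26 are called higher.

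Promoter sequences are printed for 5 of the called carriers: the 3 carboxylate carriers and Slc25a13, called lower, and Slc25a29, called higher. They are a choice and not the 5 largest changes. Called carriers such as Slc25a26 (0.72) and Slc25a4 (-0.64) moved more than Slc25a11 (-0.37) and are not printed. They are RefSeq sequences of the build GRCm38.p6, 250 bases before to 50 after the annotated start, 5′ to 3′ on the gene's strand, and 26 of the 32 carriers had such an entry. Capitals mark the letters CCAAT, the CCAAT box, and CACGTG, an E-box, read on either strand, so that ATTGG is a CCAAT box on the other strand.
Slc25a1, chr16:17928170-17928469, minus strand: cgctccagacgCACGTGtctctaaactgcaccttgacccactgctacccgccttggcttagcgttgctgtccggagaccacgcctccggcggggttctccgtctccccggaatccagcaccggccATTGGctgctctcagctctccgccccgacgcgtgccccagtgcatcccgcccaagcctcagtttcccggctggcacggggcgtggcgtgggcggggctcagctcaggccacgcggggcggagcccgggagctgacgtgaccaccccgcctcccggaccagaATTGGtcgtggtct
Slc25a10, chr11:120491587-120491886, plus strand: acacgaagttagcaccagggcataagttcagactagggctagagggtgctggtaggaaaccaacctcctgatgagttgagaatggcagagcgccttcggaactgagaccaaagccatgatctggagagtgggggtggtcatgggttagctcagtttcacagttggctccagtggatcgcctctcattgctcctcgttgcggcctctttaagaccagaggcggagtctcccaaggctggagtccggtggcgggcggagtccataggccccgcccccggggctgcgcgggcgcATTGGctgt
Slc25a11, chr11:70646990-70647289, minus strand: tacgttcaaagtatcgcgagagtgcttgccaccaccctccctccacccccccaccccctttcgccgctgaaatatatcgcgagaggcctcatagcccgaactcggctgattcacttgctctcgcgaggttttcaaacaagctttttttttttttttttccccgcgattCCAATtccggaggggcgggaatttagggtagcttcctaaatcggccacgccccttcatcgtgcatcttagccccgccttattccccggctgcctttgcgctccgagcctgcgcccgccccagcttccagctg
Slc25a13, chr6:6217124-6217423, minus strand: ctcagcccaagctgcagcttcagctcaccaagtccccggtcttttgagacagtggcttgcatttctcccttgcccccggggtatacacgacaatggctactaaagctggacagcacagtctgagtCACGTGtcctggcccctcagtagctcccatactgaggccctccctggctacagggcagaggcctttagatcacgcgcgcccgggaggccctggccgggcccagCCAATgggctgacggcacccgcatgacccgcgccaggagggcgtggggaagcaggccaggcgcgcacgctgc
Slc25a29, chr12:108835827-108836126, minus strand: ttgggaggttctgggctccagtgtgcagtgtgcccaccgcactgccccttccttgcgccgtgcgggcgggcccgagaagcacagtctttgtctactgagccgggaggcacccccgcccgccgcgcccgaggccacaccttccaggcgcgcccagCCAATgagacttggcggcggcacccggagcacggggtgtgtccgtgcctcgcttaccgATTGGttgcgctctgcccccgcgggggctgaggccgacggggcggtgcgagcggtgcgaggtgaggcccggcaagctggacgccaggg
All 5 hold at least 1 CCAAT box, and Slc25a1 and Slc25a13 hold an E-box as well. As the 5 were picked, this is not a share of the carriers. The only CCAAT box of Slc25a10, at base 42, lies after the annotated start, as does the match at base 37 in Slc25a1. CCAAT boxes stood in promoters of 14 of 26 carriers (53.8%), against 44.1% of 7104 tested genes with an entry. In these shares a gene counted once if any of its promoters matched, and the 26 carriers had 34 promoters. Counted promoter by promoter, which is another unit, 37.4% of all promoters had a CCAAT box. A CCAAT box was held by 5 of the 8 carriers that fell and 2 of the 2 that rose and had an entry. Of the 16 carriers not called, 7 held one. The E-box stood in 6 of 26 (23.1%), against 12.7% of the tested genes, and in 7.15% of all promoters counted promoter by promoter. Carriers with an E-box were 3 of the 8 that fell, 0 of the 2 that rose and had an entry, and 3 of the 16 not called. The palindromic motif of nuclear respiratory factor 1, TCACNCCAC (a sterol element core) and TGATGNAA (a C/EBP-ATF core) were in 0 of the 26, and in 2.7%, 1.44% and 2.65% of the tested genes. No motif's letters contain another's, all were read on both strands, and a match is a stretch of letters and not a binding site.

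Of the 6 carriers of acyl groups and cofactors 2 rose and 0 fell, against 14% and 16.1% of all tested genes. Slc25a26 (XLOC_016727, chromosome 6, 94500314 to 94700145), the importer of S-adenosylmethionine, the methyl donor of the matrix, had 4.36, 5.92 and 4.38 FPKM with oligomycin, against 3.06, 2.54 and 2.13 FPKM with DMSO. It rose by 0.72 (SE 0.17, adjusted p = 0.0143), without overlap, and missed the threshold without DMSO library 3 (0.0596). Its row shares its locus with Lrig1, a gene on the opposite strand that stood at 59.1 ± 6.33 FPKM with oligomycin and 40.9 ± 5.54 FPKM with DMSO and rose by 0.52 (adjusted p = 0.0235; between 0.0569 and 0.0874 without DMSO library 1 or 3 or oligomycin library 2 or 3). As the exons share 144 bases and Lrig1 was the more abundant, the value of Slc25a26 is uncertain.

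In that class 4 were not called. Slc25a20, which exchanges acylcarnitine for carnitine ahead of fatty acid oxidation, had 21.7 ± 2.66 FPKM with oligomycin and 22.6 ± 1.34 FPKM with DMSO. The interval of its change was -0.34 to 0.23 (adjusted p = 0.74). Slc25a32, the folate and FAD carrier, had 19.6 ± 4.37 FPKM with oligomycin and 17.2 ± 1.42 FPKM with DMSO, with oligomycin library 2 (14.9) under all DMSO values. Slc25a16, which has no settled substrate, had 9.65 ± 1.28 and 10.7 ± 0.228 FPKM. Slc25a17 had 60.2, 44.0 and 57.3 FPKM with oligomycin, against 74.8, 65.7 and 73.5 FPKM with DMSO. Those groups did not overlap, but its change of -0.41 had an adjusted p of 0.0593; it was called without oligomycin library 1 (0.0343) and without rows sharing a locus (0.0498).

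Among the carriers of other nucleotides 1 of 5 fell and 0 rose, against 16.1% and 14% of all tested genes. Slc25a24 (XLOC_012950, chromosome 3, 109123149 to 109168409), a calcium-regulated ATP-Mg/phosphate carrier that loads the matrix with adenine nucleotides, had 5.17, 5.06 and 4.50 FPKM in the oligomycin libraries, against 9.93, 7.91 and 5.98 FPKM in the DMSO libraries. The oligomycin values lay close together under a wide DMSO range, and the gene fell by 0.58 (SE 0.17, adjusted p = 0.0372). That call held without DMSO library 3, the lowest of its group, but not without DMSO library 1 (0.12) or 2 (0.0908), nor without oligomycin library 1, 2 or 3 (0.0535, 0.058 and 0.107), nor with equal sums (0.0607). Its relative Slc25a25 had 10.5 ± 1.04 FPKM with oligomycin and 8.6 ± 0.814 FPKM with DMSO, without overlap but not called (adjusted p = 0.158). Both pyrimidine nucleotide carriers were above 0 and not called, with Slc25a33 at 8.69 ± 1.49 FPKM with oligomycin and 6.42 ± 1.64 FPKM with DMSO, and Slc25a36 at 8.45 ± 1.25 and 7.02 ± 0.351 FPKM (adjusted p = 0.147 and 0.221).

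Iron and glutathione carriers had 0 of 4 calls by limma, against 30.2% of all tested genes called. At an unadjusted p under 0.05 there were also 0. Slc25a37 and Slc25a28, mitoferrins that bring iron to haem and iron-sulphur synthesis, averaged 7.34 ± 1.39 and 10.1 ± 1.47 FPKM with oligomycin, against 5.4 ± 0.965 and 8.17 ± 1.11 FPKM with DMSO. In both genes the groups overlapped, with intervals of -0.01 to 0.77 for Slc25a37 and -0.07 to 0.61 for Slc25a28. Slc25a39, a glutathione importer, had 61.2, 36.9 and 39.7 FPKM with oligomycin, against 52.0, 57.8 and 51.9 FPKM with DMSO. Oligomycin library 1 lay above all DMSO values and the other 2 lay under them, so that the change of -0.26 was not called (adjusted p = 0.312) but was without that library (-0.48, adjusted p = 0.0169). Slc25a40, its paralogue, had 5.68 ± 1.24 FPKM with oligomycin and 4.83 ± 0.741 FPKM with DMSO (adjusted p = 0.429).

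Of the remaining members, Slc25a14 (XLOC_022244, chromosome X, 48623580 to 48662294), which resembles the uncoupling proteins, had 4.43, 3.96 and 4.11 FPKM in the oligomycin libraries, against 6.53, 5.16 and 7.26 FPKM in the DMSO libraries. It fell by 0.49 (SE 0.15, adjusted p = 0.0361) with no overlap, and lost its call with equal sums (0.0881) and without DMSO library 1 (0.107) or 3 (0.14) or oligomycin library 2 (0.0731) or 3 (0.09). Slc25a30, another member like the uncoupling proteins, was not called, at 26.9, 34.6 and 26.9 FPKM with oligomycin, against 24.8, 18.9 and 20.4 FPKM with DMSO. All its oligomycin values were higher (adjusted p = 0.0524), and it was called by quantile normalization (0.0452), with equal sums (0.0278), when rows that share a locus were left out (0.0439) and without DMSO library 1 (0.0457). Slc25a45, which has no settled substrate, had 3.01, 10.3 and 4.68 FPKM with oligomycin, against 2.35, 1.93 and 3.35 FPKM with DMSO. Oligomycin library 2 stood apart there and the groups overlapped (change 0.86, SE 0.34, adjusted p = 0.0902; 0.0214 without oligomycin library 1). Slc25a46, an outer membrane member that acts in mitochondrial shape, had 21.6 ± 1.72 FPKM with oligomycin and 20.96 ± 0.918 FPKM with DMSO (adjusted p = 0.807).

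Counting overlap in place of the limma call, 10 carriers had all oligomycin values lower and 9 had all of them higher, against 24.3% and 23.1% of all tested genes. Among the carriers these were 31.2% and 28.1%, so both shares were somewhat above those of all genes; no test of the list was made.

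Carriers that share a substrate were set against each other within each library, in 6 pairs with exact two-sided permutation tests, for which 3 against 3 libraries cannot give a p under 0.1. Slc25a12 over Slc25a13 gave ratios of 7.25, 9.71 and 5.70 in the oligomycin libraries, against 2.85, 3.48 and 2.31 in the DMSO libraries. The balance thus lay further on the side of Slc25a12 in each oligomycin library, with a difference of 1.15 on the log2(FPKM + 1) scale (exact p = 0.1, adjusted over the 6 pairs 0.2). Slc25a4 over Slc25a5 gave 0.651, 0.714 and 0.706 with oligomycin, against 0.888, 0.815 and 0.796 with DMSO, a difference of -0.27 (exact p = 0.1, adjusted 0.2). Slc25a39 over Slc25a40 gave 8.66, 6.94 and 8.52 with oligomycin, against 9.41, 14.3 and 10.6 with DMSO, a difference of -0.45 (exact p = 0.1, adjusted 0.2). In these 3 pairs the groups did not overlap and p was the smallest the design allows. The other 3 pairs overlapped, with differences of 0.45 for Slc25a23 over Slc25a24, 0.17 for Slc25a33 over Slc25a36 and -0.11 for Slc25a28 over Slc25a37 (exact p = 0.3, 0.5 and 0.7, adjusted 0.45, 0.6 and 0.7). With 1 library left out the difference of Slc25a23 over Slc25a24 ran from 0.22 (without DMSO library 1) to 0.69 (without oligomycin library 1), and that of Slc25a33 over Slc25a36 from 0.0224 (without oligomycin library 1) to 0.30 (without DMSO library 3). For Slc25a39 over Slc25a40 it was -0.30 without DMSO library 2 and -0.28 by quantile normalization, and the sign of the iron pair turned without DMSO library 2 (0.0248).

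**Figure D3:**
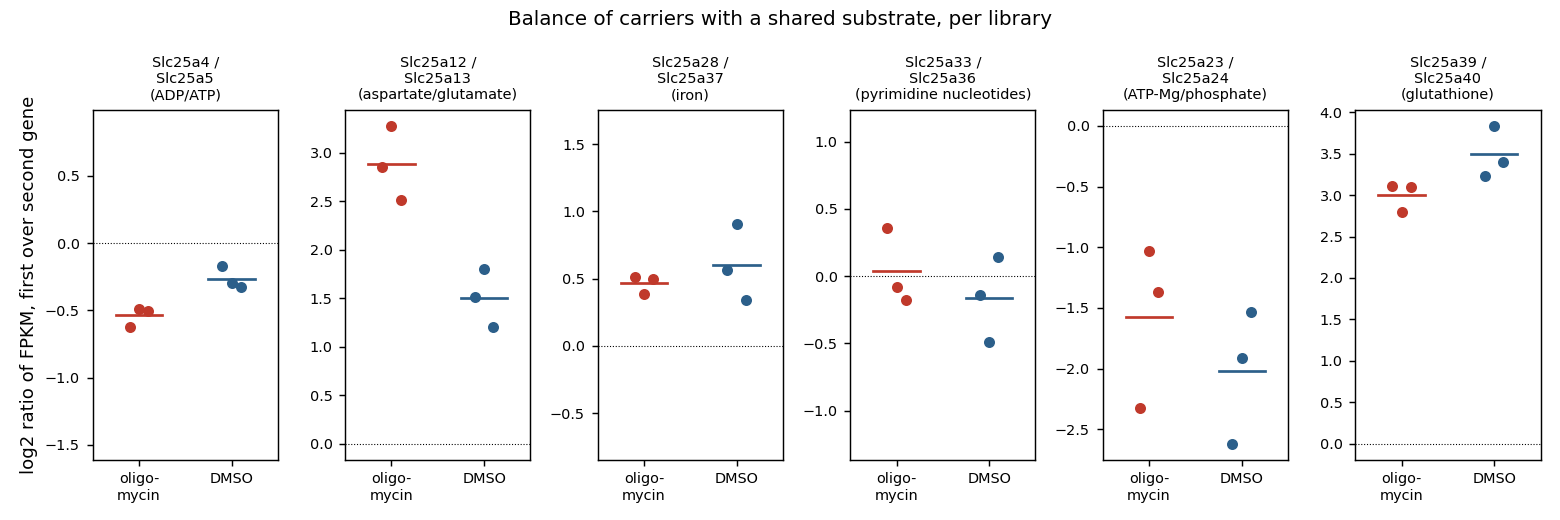
Log2 ratio of FPKM of 2 carriers with a shared substrate in each library (points) and the group mean (line), oligomycin left of DMSO, each panel with its own axis range and a dotted line at equal levels where it is in range. The groups are apart for the ADP/ATP, aspartate/glutamate and glutathione pairs.

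Genes that work beside the carriers were read from 13 lists with 106 genes in the table. Of these 33 were called, 21 lower and 12 higher, with a median log2 change of -0.16. That is 31.1% called, against 30.2% of all tested genes. By direction it is 19.8% lower and 11.3% higher, against 16.1% and 14% of all tested genes. The counts of each list below stand beside these shares of all genes, and no list was tested as a set. Beside Slc25a1, the list of citrate and isocitrate enzymes, which also holds Acaca and Fasn, had 4 of 6 that fell, 0 that rose and a median of -0.64. Acly, which splits exported citrate into acetyl-CoA, had 89.5, 76.7 and 79.8 FPKM with oligomycin, against 128, 143 and 124 FPKM with DMSO (log2 change -0.68, adjusted p = 0.00431). Aco1, the cytosolic aconitase, and Idh1, a cytosolic isocitrate dehydrogenase, fell by 0.60 and 1.46. Acaca and Fasn, the next enzymes of fatty acid synthesis, had changes of -0.23 and -0.28 and were not called (adjusted p = 0.209 and 0.211, for Fasn 0.0364 without oligomycin library 1). In the malate-aspartate shuttle and glutamate list 2 of 7 fell and 0 rose, with a median of -0.36. Mdh1, the cytosolic malate dehydrogenase, had 109, 106 and 103 FPKM with oligomycin, against 157, 172 and 139 FPKM with DMSO (log2 change -0.55, adjusted p = 0.0112). Got2, the mitochondrial aspartate aminotransferase, fell by 0.73 (adjusted p = 0.0211), though not without DMSO library 1 (0.0675), DMSO library 3 (0.0635) or oligomycin library 3 (0.0639).

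Beside the ADP/ATP carriers, Atpif1, the inhibitor that keeps the ATP synthase from running backward, had 94.9, 65.6 and 80.2 FPKM with oligomycin, against 228, 195 and 184 FPKM with DMSO, and fell by 1.33 (adjusted p = 0.000685), the only call among 5 genes of permeability transition and ATP hydrolysis control. Of the 3 outer membrane channels, through which carrier substrates reach the cytosol, Vdac1 fell, at 101 ± 22.9 FPKM with oligomycin and 153 ± 19.4 FPKM with DMSO (log2 change -0.60, adjusted p = 0.0364). That call was lost by quantile normalization (0.0727), equal sums (0.0613) and without any library other than oligomycin library 1 (0.0634 to 0.123). Vdac2 and Vdac3 had changes of -0.35 and -0.18 and were not called (Vdac2 adjusted p = 0.0172 without oligomycin library 1). Carrier import by the TIM22 route had 0 of 15 calls by limma, with a median of -0.16 and 3 genes at an unadjusted p under 0.05. The lowest adjusted p there was 0.0578, for Tomm40, the channel of the outer membrane, at 88.5 ± 17.3 FPKM with oligomycin and 118 ± 0.804 FPKM with DMSO; it was called without oligomycin library 1 (0.00815) and without rows sharing a locus (0.0471).

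Of the relatives of the family under other symbols, Mtch1, an outer membrane member, had 23.3, 24.9 and 23.8 FPKM with oligomycin, against 43.8, 50.8 and 47.0 FPKM with DMSO, and fell by 0.95 (adjusted p = 0.000537). Its relative Mtch2 had 31.2 ± 5.12 and 40.9 ± 2.16 FPKM (adjusted p = 0.0592, and 0.015 without oligomycin library 1). Ucp2, the uncoupling protein of lymphocytes, had 69.9 ± 15.0 FPKM with oligomycin and 70.0 ± 4.96 FPKM with DMSO (adjusted p = 0.932). Of 10 inner membrane transporters outside the family, 2 were called higher and 2 lower, near the 14% and 16.1% of all tested genes. Ghitm, an inner membrane protein of calcium handling, and Sfxn3, a sideroflexin, rose by 0.64 and 1.09. Abcb10, a transporter that acts with mitoferrin in haem synthesis, and Sfxn1, the serine transporter, fell by 1.00 and 0.50 (adjusted p = 0.00256 and 0.0171). Sfxn1 was not called without DMSO library 1 (0.0557), DMSO library 3 (0.0686) or oligomycin library 3 (0.0545).

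Folate enzymes of the matrix, which use the cofactor that Slc25a32 carries, had 3 of 6 that rose and 0 that fell, with a median of 0.43, while Slc25a32 was not called. Aldh1l2, a formyltetrahydrofolate dehydrogenase, averaged 5.74 ± 0.9746 FPKM with oligomycin and 0.445 ± 0.0641 FPKM with DMSO (log2 change 2.21, adjusted p = 7.01e-05). Mthfd2 and Shmt2 rose by 0.68 and 0.53 (adjusted p = 0.011 and 0.0148). The call of Mthfd2 was lost without DMSO library 3 (0.0514), and that of Shmt2 without DMSO library 1, 2 or 3 (0.0566, 0.0507 and 0.054). Haem and iron-sulphur synthesis, which the mitoferrins and Slc25a38 supply, held 17 genes, of which 6 fell and 2 rose, with a median of -0.26. Cpox and Fdx1 fell by 0.74 and 0.62, and Uros and Hscb rose by 1.04 and 0.84. All of these kept their direction and call in each of the 15 other settings, though the sizes varied. Alad, Alas1 and Glrx5 (-0.48, -0.39 and -0.39) each lost the call without 4 or more of the 6 libraries. Mitochondrial nucleotide and DNA synthesis had 3 of 14 that rose and 2 that fell, with a median of 0.10. Rrm2b, Dguok and Tk2, which make or salvage deoxynucleotides, rose by 0.94, 0.68 and 0.72, and Ak4, an adenylate kinase, fell by 1.32. Tk2 was not called without DMSO library 1 (0.0655) or 3 (0.0745).

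Carnitine enzymes had 1 of 4 that rose (Slc22a5, the carnitine transporter of the plasma membrane, by 0.47) and 2 that fell (Cpt2 and Crat, by 0.50 and 0.73), with a median of -0.12, and each of these calls was lost without at least 4 of the 6 libraries. In glutathione synthesis 1 of 6 rose, Gclc, by 0.47 (adjusted p = 0.0374, and between 0.0706 and 0.126 without DMSO library 1 or 3 or oligomycin library 2 or 3), with a median of -0.10. For CoA, thiamine and S-adenosylmethionine synthesis 0 of 10 genes were called by limma, with a median of 0.09 and 1 at an unadjusted p under 0.05.

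**Figure D4:**
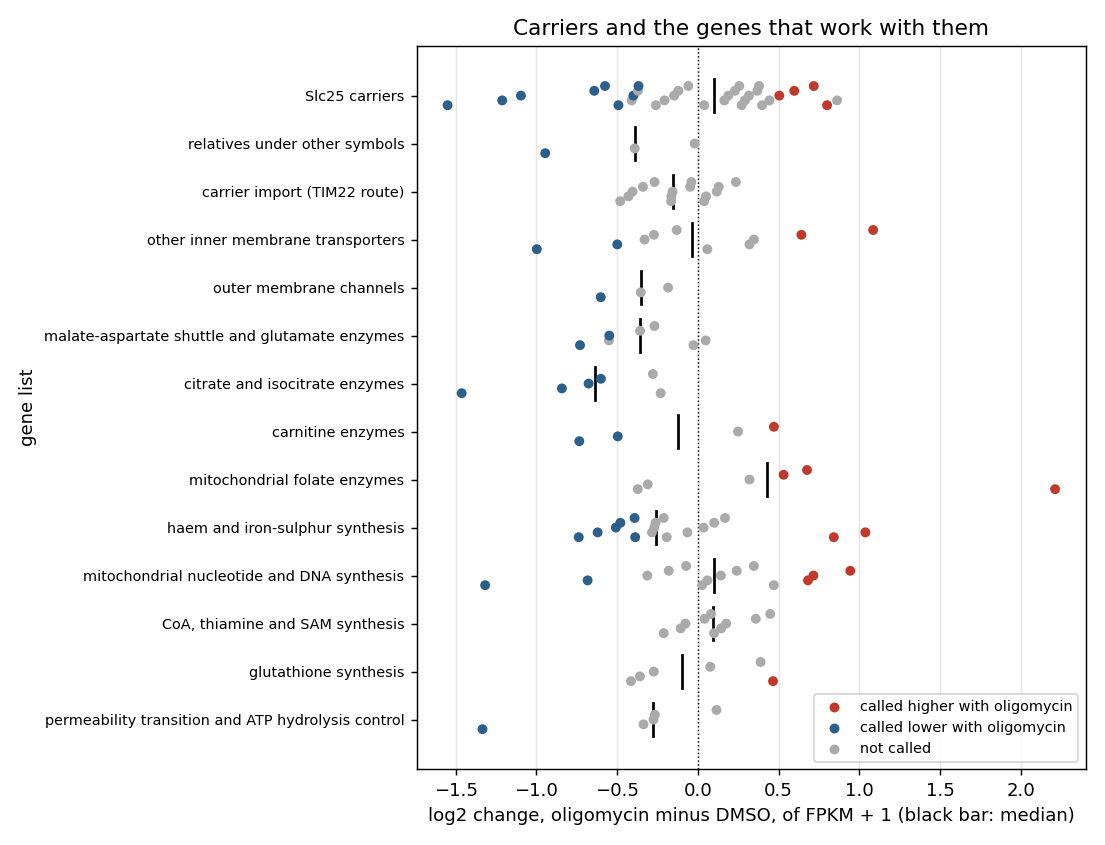
Log2 change (oligomycin minus DMSO, of FPKM + 1) of the carriers and of each gene of the 13 partner lists, one point a gene and a black bar for the median. The list of citrate and isocitrate enzymes, which also holds Acaca and Fasn, lies on the left with a median of -0.64. Folate enzymes reach furthest to the right with Aldh1l2, whose DMSO values all lay under 1 FPKM. The import list holds no coloured point.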

How the data were processed

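The authors deposited 1 table of FPKM values for 6 libraries, with columns named by group and a number. Per the submitters' processing notes, the tools were Cuffnorm 2.2.1.1, Cuffdiff 2.2.1.3, TopHat2 2.1.0 and Cufflinks 2.2.1.0, with the mouse build GRCm38 (mm10); the role of each, the annotation, the scaling, the filters, the strand and the handling of reads with several matches appear in none of the sources used here. FPKM are divided by length and library size, so a gene's value depends on all others. Depth is unknown: low values of library pairs shared no common ratio (at most 4 of 113 rows), so no reads were recovered and no counting interval is given. Rows that name a small RNA (187) took 72.0% to 82.2% of the FPKM sums, which are not shares of reads.

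The test was run on log2(FPKM + 1) in limma 3.58.1 in R 4.3.3 (moderated statistics with an intensity trend, group as the only term, two-sided, Benjamini-Hochberg adjustment over the 9986 of 10041 rows with at least 1 FPKM in at least 3 libraries); a gene was called at an adjusted p under 0.05. Only carrier rows and the lists are printed; a few of these genes are counted but not reported here by name. Errors are SD over 3 libraries or SE of the fitted change. Starts were read as counted from 0 and are printed from 1, because this matched 2383 of 8995 GENCODE starts, against 327 otherwise. The procedure was checked on simulated data. Alternatives were quantile normalization, equal sums, pseudocounts of 0.1 and 5, a minimum of 5 FPKM or none, no intensity trend, leaving out rows that share a locus, leaving out each library, and a block by column number. Promoter sequences and transcript overlaps came from RefSeq (GRCm38.p6) and GENCODE M21. Named genes are the carriers, the called genes of the partner lists and direct partners of called carriers; Acaca, Fasn, Ucp2, Mtch2, Vdac2, Vdac3, Tomm40, Cd28, Rnf167 and Lrig1 were named after their values were seen. Members, lists and tests were chosen with earlier results of these data known.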

Additional observations from a re-analysis of the deposited data

How the results depend on the processing

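The titles give the numbers 17, 42 and 43 in both groups and the columns 1 to 3, so a block by title number could not be fitted. Deviations from the group mean of same-numbered columns correlated at 0.056, 0.247 and 0.132 for numbers 1, 2 and 3. Of columns with different numbers, oligomycin library 1 and DMSO library 3 correlated at 0.117. The rest of these were at 0, -0.054, -0.12, -0.158 and -0.216, under all same-numbered values. No label ties the column numbers to the title numbers. The main test took no pairing into account, and whether the libraries are paired is not known. A replicate block by column number, chosen after seeing the data, called 3532 genes against 3013, 13 carriers against 12 (Slc25a17 gained, adjusted p = 0.027) and 43 partner genes against 33 (Mtch2 0.0322, Tomm40 0.045), and the paired exact test of the ratios gave p of 0.25, the smallest 3 pairs can give, or more. Slc25a1, Slc25a4, Slc25a10 and Slc25a13 kept their direction and call under each alternative run. Of 475 carrier values under other settings 36 lost and 16 gained a call and 4 changed sign, all of them of carriers that were not called: Slc25a20 (0.0501 with equal sums, and -0.1224 to 0.0406 with 1 library left out), Slc25a23 (-0.31 to 0.0803) and Slc25a46 (-0.0078 to 0.1009). The log2 ratio of Slc25a28 over Slc25a37 turned to 0.0248 without DMSO library 2, within a range of -0.22 to 0.0248 with 1 library left out. Ucp2 turned to 0.13 by quantile normalization, 0.0924 with equal sums, and ranged from -0.18 to 0.12 with 1 library left out. With equal sums 7 carriers were higher and 4 lower, against 4 and 8. Leaving out 1 library gave 6 to 13 called carriers (1 to 4 higher, 4 to 10 lower), 1769 to 3248 called genes (780 to 1387 higher, 989 to 1861 lower) and 20 to 42 called partner genes. Which part fewer libraries and which part single values play was not tested. The depth behind the FPKM is unknown.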
